A study of Homo sapiens with 11 samples.

Results

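The 7 expression arrays of A549 transfectants, of 11 arrays in the series, divided in a way that ran across the transfection groups: the second set of A549 cells (mock_3, WT_2 and WT_3) was set against the first set (mock_1, mock_2 and WT_1). A549 is an established human lung adenocarcinoma cell line. All cells had been infected with a retrovirus and selected with G418, the mock cells with the empty pMXs-Neo vector and the TRIM58-WT cells with the same vector carrying the coding sequence of wild-type TRIM58 with a FLAG tag. Clones were isolated after selection, and whether each replicate is 1 clone is not given in the sources used here. The 2 mock_1 arrays (1-1 and 1-2) are labelled as the same control cell and were averaged, which left 3 replicates in each set. The other 4 arrays are of HCC827, a second lung adenocarcinoma line, with 2 mock and 2 TRIM58-WT replicates. The names of the arrays are those of the labels throughout.

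The sets were chosen from these same arrays, by the measured differences between them and by their place on the slides, so every difference between the sets is given as a description with no test. A level is the log2 signal of a probe minus the 75th percentile of its array, and a difference is the mean level of the second set minus that of the first. A probe was examined when all arrays of one set or of the other measured it well above background. It was said to follow the division when the 3 replicates of one set all lay above the 3 of the other and the means differed by at least 1 on the log2 scale, which is 2-fold. Of 17347 probes examined, 1229 were higher in the second set (7.08%) and 1058 were lower (6.1%). Higher probes thus made up 53.7% of those that followed, against 67.3% when arrays were aligned on their median (1544 higher, 749 lower), 43.2% after normexp background correction (244 and 321) and 65.9% among probes measured well above background on all arrays (923 and 478). Without a limit on size, 8034 probes (46.3%) did not overlap between the sets. Just inside the limit lay RPL7L1 and SLTM, with differences of 1.0004 and -1.0005, and just outside it lay FANCL, at -0.9993. The probes that did not overlap and differed by 1.0 to 1.1 numbered 397, and those that differed by 0.9 to 1.0 numbered 434. Counted by gene, with the brightest probe of each of 11316 genes, 578 genes were higher (5.11%) and 659 were lower (5.82%).

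Several gene programmes recur below. Interferon-stimulated genes are switched on when interferon, or nucleic acid sensed inside the cell, activates STAT and IRF transcription factors, and they encode antiviral proteins and much of the HLA class I pathway that displays peptides on the cell surface. Replication-dependent histone genes lie in clusters, supply histones during S phase, and give transcripts that end in a stem-loop and carry no poly(A) tail. ATF4 is the transcription factor of the integrated stress response and drives genes of amino acid synthesis, transport and tRNA charging.

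Promoters of 3 interferon-stimulated genes, 1 amino acid synthesis gene and 1 histone gene are shown because they hold the elements searched for in the groups described below. The sequences are from RefSeq (GRCh38.p14), 5′ to 3′ on the strand of the gene, in a window around its start that lies mostly upstream. Capitals mark the core of the interferon-stimulated response element, GAAA and GAAA separated by any 2 bases, in IFI6 (chr1:27672143-27672442, minus strand), IFIT1 (chr10:89392373-89392672, plus strand) and ISG15 (chr1:1013247-1013546, plus strand). They mark TGATGNAA, the C/EBP-ATF element read by ATF4, in ASNS (chr7:97872359-97872658, minus strand) and the octamer ATTTGCAT in H2AC6 (chr6:26123922-26124221, plus strand). Each motif was searched on both strands, so that TTTC and TTTC separated by 2 bases, TTNCATCA and ATGCAAAT count as well.
IFI6: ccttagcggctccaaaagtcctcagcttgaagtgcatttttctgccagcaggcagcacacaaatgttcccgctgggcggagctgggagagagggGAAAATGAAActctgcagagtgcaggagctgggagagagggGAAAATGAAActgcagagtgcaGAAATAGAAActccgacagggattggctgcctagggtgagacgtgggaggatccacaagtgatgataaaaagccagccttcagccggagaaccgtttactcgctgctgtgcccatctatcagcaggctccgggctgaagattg
IFIT1: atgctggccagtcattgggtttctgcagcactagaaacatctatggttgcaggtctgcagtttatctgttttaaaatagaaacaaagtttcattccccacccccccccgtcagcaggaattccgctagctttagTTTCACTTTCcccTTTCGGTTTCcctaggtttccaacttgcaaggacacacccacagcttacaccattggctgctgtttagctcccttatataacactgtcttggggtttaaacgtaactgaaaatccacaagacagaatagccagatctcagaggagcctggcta
ISG15: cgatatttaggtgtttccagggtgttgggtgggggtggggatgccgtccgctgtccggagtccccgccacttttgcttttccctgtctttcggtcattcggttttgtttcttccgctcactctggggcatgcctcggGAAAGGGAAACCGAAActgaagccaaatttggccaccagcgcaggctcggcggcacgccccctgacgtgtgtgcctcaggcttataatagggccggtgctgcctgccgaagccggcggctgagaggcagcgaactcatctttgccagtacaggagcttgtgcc
ASNS: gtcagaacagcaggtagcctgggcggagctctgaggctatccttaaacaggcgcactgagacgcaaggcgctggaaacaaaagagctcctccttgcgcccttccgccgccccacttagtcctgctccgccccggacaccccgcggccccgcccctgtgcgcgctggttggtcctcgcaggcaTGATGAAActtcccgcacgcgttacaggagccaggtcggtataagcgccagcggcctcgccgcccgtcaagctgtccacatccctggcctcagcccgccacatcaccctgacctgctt
H2AC6: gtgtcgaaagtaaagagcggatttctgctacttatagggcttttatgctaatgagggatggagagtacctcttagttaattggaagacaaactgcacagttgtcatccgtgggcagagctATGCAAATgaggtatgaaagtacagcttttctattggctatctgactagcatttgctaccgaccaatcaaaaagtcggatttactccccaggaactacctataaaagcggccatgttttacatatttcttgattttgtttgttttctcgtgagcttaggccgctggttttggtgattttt
IFI6 held 3 matches, and IFIT1 and ISG15 held 2 each, which overlap in ISG15. Of the 25 interferon-stimulated genes that were lower in the second set, 22 had a promoter in the table and 16 of these held the element (72.7%), against 3.65% of all 27305 promoters. The element was also in 4 of the 6 promoters of listed interferon-stimulated genes that were examined and did not follow the division. Among lower genes outside the interferon-stimulated and HLA class I lists, 22 of 486 promoters held it (4.53%). The C/EBP-ATF element was in 3 of the 8 promoters of higher ATF4-related genes (ASNS, CHAC1 and AARS1), against 3.67% of all promoters. The octamer was in 22 of the 49 promoters of higher clustered histone genes (44.9%), against 1.80% of all promoters, and windows of neighbouring histone genes overlap. A match says only that these letters lie in the window.

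TRIM58, the gene that the TRIM58-WT cells were made to express, did not separate the groups as the labels would have it. Its probe lay at -5.28 on mock_1-1, -5.33 on mock_1-2, -5.18 on mock_2 and -4.84 on WT_1. It lay at -0.71 on the array labelled mock_3, and at -4.63 on both WT_2 and WT_3. The array labelled mock_3 was the only one of the 11 on which this probe was well above background. Whether the probe lies in the part of the transcript that the vector carries is not given in the sources used here, so it does not check the TRIM58-WT labels. Whether the array labelled mock_3 holds mock cells was not tested, and the difference among mock cells and the fits of the transfection label rest on that label.

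The division fell close to the slide. Slide 1, read in 1 scan, held mock_1-1, mock_2, WT_1 and the 4 HCC827 arrays, and slide 2, read in another, held mock_1-2, mock_3, WT_2 and WT_3, so mock_1-2 is the only array of the first set on slide 2. The 75th percentile of the signal, before any scaling, was 56.6 to 62.5 in the second set and 90.5 to 102.9 on the 4 arrays of the first set. Between 40.1% and 40.5% of probes were well above background in the second set and at least 42.8% on each array of the first. Lower probes were mostly dim ones. Of the 4337 probes with the lowest mean level 599 were lower and 340 higher, whereas of the 4337 brightest 66 were lower and 362 higher. The part of the signal level in the counts of higher and lower probes was not tested.

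The mock_1 cells were hybridised on both slides, which gives 1 pair of arrays labelled as the same control cell. Whether the pair shares 1 culture or 1 RNA extraction is not given in the sources used here. The difference within the pair holds the slide together with labelling and array noise, and culture and extraction if these were separate. Both arrays were part of the rule that chose the probes. At the lower probes, mock_1-2 minus mock_1-1 had a median of -0.05, beside a median difference of -1.54 between the sets, and 2 of the 1058 probes differed by at least 1 in the same direction. At the higher probes the median was 0.13, beside 1.30, and 105 of 1229 probes were higher by at least 1 on mock_1-2. On slide 2, mock_1-2 lay nearer to mock_2 and WT_1 than to the second set at 96.5% of the lower and 79.0% of the higher probes, against 97.3% and 89.3% for mock_1-1 on slide 1, shares that the rule largely fixes because both arrays were averaged into the first set. The part of the slide in the division was not tested. Single probes of GPATCH4, HSP90AA1 (a cytosolic chaperone) and FOXP4, named after their values were seen, differed most between the 2 mock_1 arrays, by 3.60, 3.34 and 3.30. The differences of these probes between the sets were 2.01, 2.45 and 1.93, and the brightest probe of HSP90AA1 differed by 0.88. With mock_1-2 alone standing for mock_1, 1148 probes were higher and 1067 lower.

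**Figure D1:**
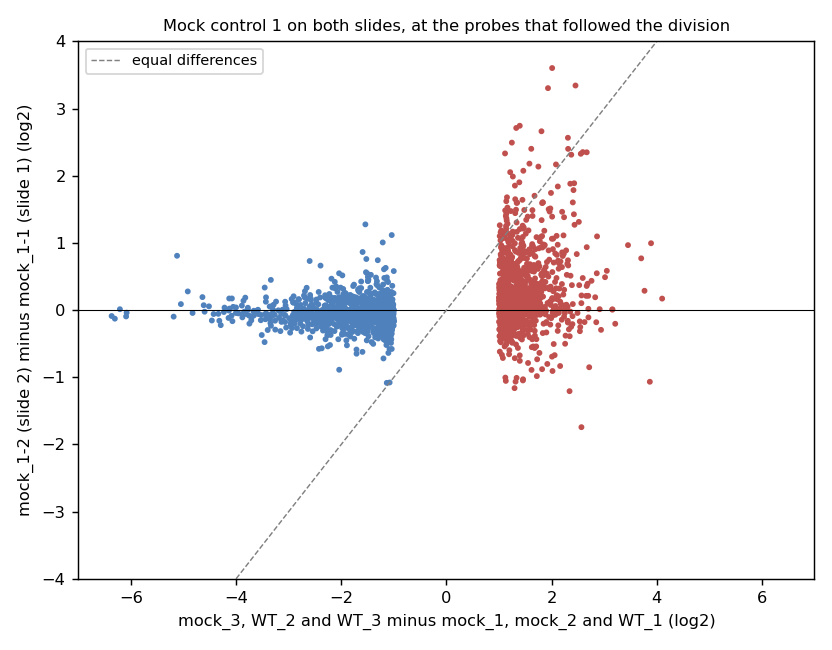
Each point is 1 of the 2287 probes that followed the division, with the difference between the sets on the x axis and mock_1-2 minus mock_1-1 on the y axis (both log2). Lower probes (blue) lie close to 0 on the y axis, with a median of -0.05, and higher probes (red) have a median of 0.13 and a tail above 1 that holds 105 probes.

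The replicates within a set were not equally close. WT_2 and WT_3 correlated at 0.995 over the probes examined and differed with an SD of 0.26 log2, less than the SD of 0.29 between the 2 mock_1 arrays. The SD was 0.65 between mock_3 and WT_2 and 0.46 between mock_1-1 and mock_2. Between WT_1 and the other arrays it was 0.84 to 0.94, larger than for any pair within the second set. WT_1 correlated with mock_1-1, mock_1-2 and mock_2 of its own set at 0.945, 0.942 and 0.935. With mock_3, WT_2 and WT_3 of the second set it correlated at 0.935, 0.939 and 0.943. On the first principal component, which held 65.2% of the variance, WT_1 lay at 0.0028, between mock_1 and mock_2 (-0.43 to -0.36) and the second set (0.16 to 0.52). On the second component, which held 21.1%, WT_1 lay apart at -0.87 and the other arrays at 0.03 to 0.46. Without WT_1, 1891 probes were higher and 2006 lower, and without mock_3 the counts were 1908 and 1553.

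The difference was also read within each transfection group, among mock cells with mock_3 alone on the second side. All 2287 probes differed in the same direction between mock_3 and the other mock cells as between WT_2 and WT_3 and WT_1, which the rule on overlap fixes, and the rule on size constrains how large the difference is in each. At 1291 of them (56.4%) the difference was at least 1 in each transfection group, 597 higher and 694 lower. The median size was 1.28 among mock cells and 1.49 among TRIM58-WT cells. Interferon-stimulated genes differed more among mock cells, with a median of -2.27 against -0.82 among TRIM58-WT cells, and inflammatory genes differed more among TRIM58-WT cells, with -2.01 against -1.22.

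**Figure D2:**
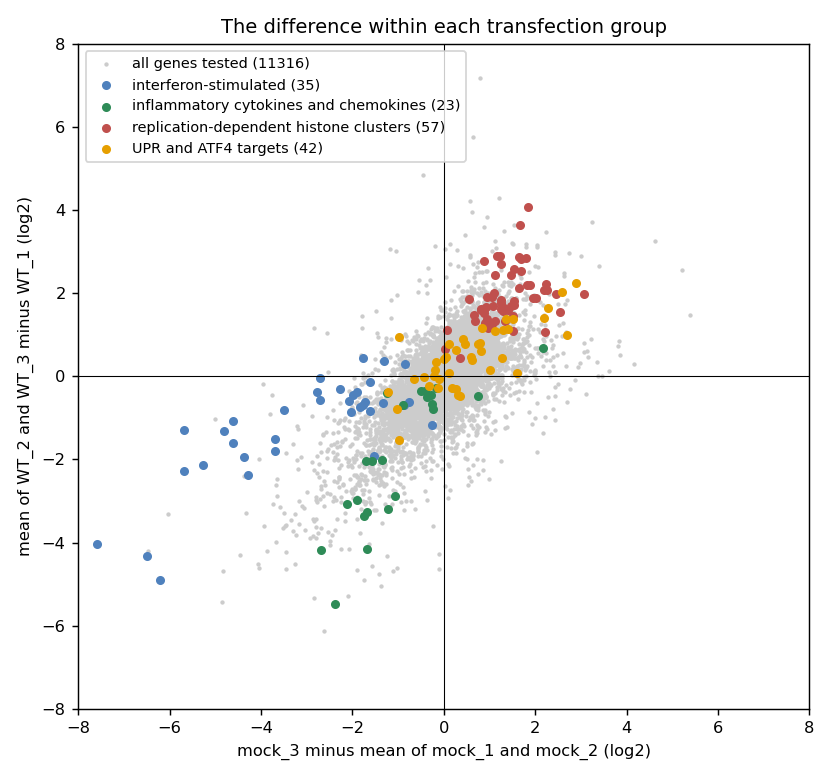
Each point is 1 gene, with the difference among mock cells (mock_3 minus the mean of mock_1 and mock_2) on the x axis and among TRIM58-WT cells (mean of WT_2 and WT_3 minus WT_1) on the y axis, both log2, and 4 lists are coloured. The 35 interferon-stimulated genes stretch further along the x axis (median -2.27) than along the y axis (median -0.82), and the clustered histone genes lie in the upper right corner.

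Of the gene lists, interferon-stimulated genes had the highest share of lower genes among those with more than 1 gene examined. Of 45 on the array 35 were examined, and of these 25 followed the division, all 25 lower in the second set. All 35 differences were below 0, and the median was -1.69, against 0.11 over all genes. Genes such as IFI44 and IFIT2 were examined only because they were well above background in the first set. The filter thus largely fixes the direction of such genes. IFI6, an interferon-induced mitochondrial protein, lay at 6.06, 5.98, 6.34 and 2.73 on mock_1-1, mock_1-2, mock_2 and WT_1, and at -1.40, -1.48 and -1.13 on mock_3, WT_2 and WT_3. It was thus 82.5-fold lower (5.03 ± 2.00 against -1.34 ± 0.18, SD, n = 3 each). WT_1 was in between, nearer to the other first-set cells than to the second set.
IFITM1, a membrane protein that blocks virus entry, lay at 4.27, 4.14, 4.65 and 1.5 on the arrays of the first set and at -1.78, -3.82 and -2.96 in the second, where only 1 of 3 arrays was well above background. MX1, a dynamin-like antiviral GTPase, lay at 3.15, 3.13, 3.84 and -0.09 and at -2.19, -2.64 and -2.07, also with 1 of 3 arrays of the second set well above background. The same order held for both, with mock_1 and mock_2 high, WT_1 lower by several log2 units and the second set lowest.
IFIT1, which binds viral RNA caps, lay at 5.50, 5.38, 5.90 and 1.52 and at -0.02, 0.20 and 0.25. ISG15, a ubiquitin-like modifier, lay at 7.56, 7.50, 7.62 and 4.38 and at 2.95, 3.27 and 3.33, and was well above background on all 7 arrays. For both, WT_1 was closer to the second set than to the mock cells of the first. OASL, a member of the 2′-5′ oligoadenylate synthetase family, differed by -3.82, and PARP9 by -3.07.

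Some interferon-stimulated genes left only a bound, because no array of the second set was well above background. Such a fold sets the mean of the first set against, on each array of the second, the higher of the lowest level well above background and the level of the probe. IFI44 was at least 18.5-fold lower, IFIT2 at least 11.3-fold and BST2, also called tetherin, at least 4.39-fold. Outside the list, PIP, a secreted prolactin-inducible protein, was at least 19.98-fold lower and REC8, a meiotic cohesin subunit, at least 10.2-fold. The median level of the 35 genes was 2.46, 2.42 and 2.87 on mock_1-1, mock_1-2 and mock_2, 0.67 on WT_1, and -0.35, -0.49 and -0.40 on mock_3, WT_2 and WT_3. Under a median shift in place of the 75th percentile 14 of the genes still followed the division, and 23 did under quantile normalization. The list's median was -1.61 and -1.74 under these scalings.

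HLA class I genes were lower as well. Of 15 examined genes of class I antigen presentation, 10 were lower and none was higher, with a median of -1.59. HLA-C lay at 4.65, 4.57, 4.78 and 3.70 in the first set and at 2.35, 1.75 and 1.91 in the second. B2M, the invariant light chain of class I molecules, lay at 6.86, 6.83, 6.88 and 5.80 and at 4.69, 4.48 and 4.70. Neither overlapped between the sets, and WT_1 was the lowest of the first set for both. HLA-G (-2.10), HLA-F (-2.07), HLA-B (-1.86) and the peptide-trimming enzyme ERAP2 (at least 2.32-fold lower) followed, and so did the pseudogene HLA-J (-3.06). TAP1 and PSMB9, a peptide transporter subunit and an immunoproteasome subunit, differed by -0.79 and -0.87 and did not follow. HLA genes are near-identical to each other, and a probe may bind the transcript of more than 1 of them.

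**Figure D3:**
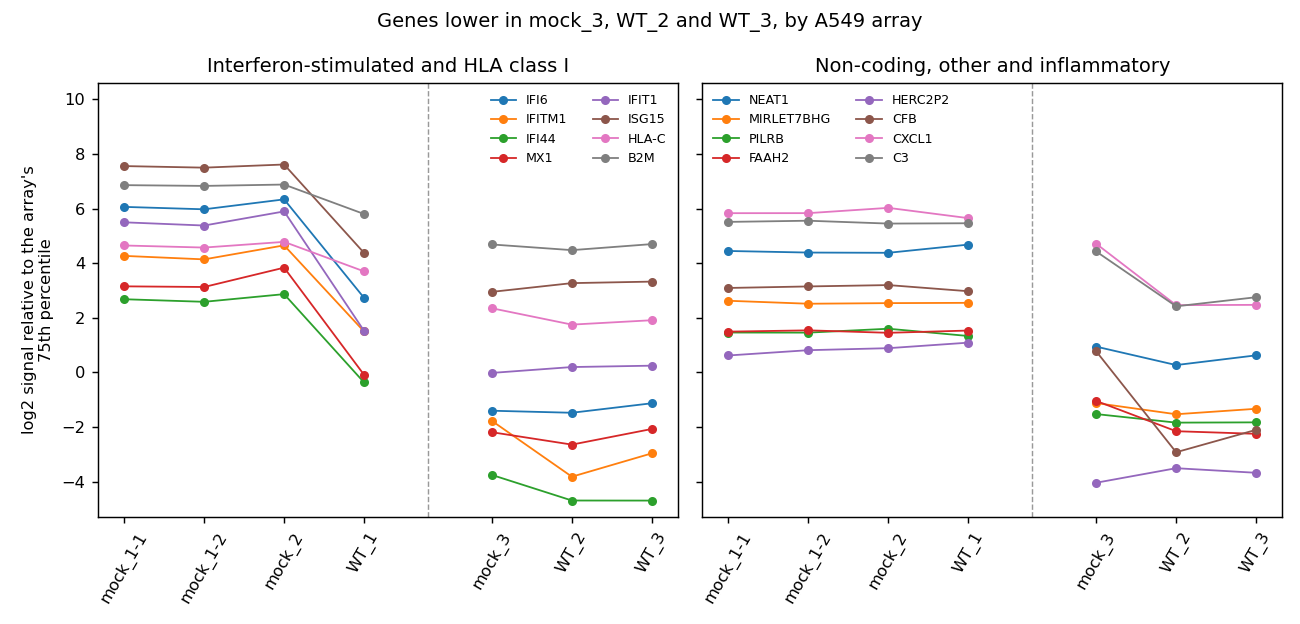
Levels (log2 relative to the 75th percentile of the array, y axis) of 16 lower genes on the 7 A549 arrays (x axis), with the first set left of the dashed line and the second set right of it. Interferon-stimulated genes on WT_1 lie between mock cells of the first set and the second set, such as IFI6 at 2.73, whereas NEAT1, MIRLET7BHG, PILRB, FAAH2 and HERC2P2 on WT_1 lie with mock_1 and mock_2.

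A second kind of lower gene was as high on WT_1 as on mock_1 and mock_2. NEAT1, the long non-coding RNA that builds nuclear paraspeckles, lay at 4.45, 4.39, 4.38 and 4.68 in the first set and at 0.94, 0.27 and 0.63 in the second, a 14.7-fold difference. MIRLET7BHG, a host transcript of let-7 miRNAs, lay at 2.62, 2.52, 2.54 and 2.55 and at -1.12, -1.53 and -1.33. The 4 arrays of the first set lay close together for both, with WT_1 the highest for NEAT1, and the second set lay far below them.
PILRB, a paired immunoglobulin-like receptor, lay at 1.46, 1.46, 1.60 and 1.33 and at -1.53, -1.84 and -1.83. FAAH2, a fatty acid amide hydrolase, differed by -3.32, and the pseudogene HERC2P2 was at least 10.6-fold lower. GABRE, a GABA-A receptor subunit, differed by -3.11 and was highest on WT_1 (5.40). SNHG12, a small nucleolar RNA host gene, differed by -2.92 but was lower on WT_1 (3.34) than on mock_1-1 (3.99) and mock_2 (4.16). All 3 NEAT1 probes followed the division, with differences from -4.43 to -3.67. MALAT1, another abundant nuclear non-coding RNA, was looked at after its values were seen, and all 5 of its probes followed, with differences from -4.34 to -1.62. Among 341 long non-coding RNA genes examined, 14.4% were lower and 11.1% higher, against 5.48% and 4.78% of the 10743 protein-coding genes.

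Inflammatory and plasma protein genes were lower, most so in WT_2 and WT_3. Of 23 inflammatory genes examined, 7 were lower and none was higher, with a median of -1.71. The list's median level was 2.00 on WT_1 and 2.01 on mock_3, so the sets met there. In the label fit with the set as a term, described below, limma called 11 of the 23 lower and 3 higher in TRIM58-WT. Over all probes these shares were 4.7% and 4.56%. CFB, complement factor B, lay at 3.09, 3.15, 3.20 and 2.97 in the first set, at 0.77 on mock_3, and at -2.92 and -2.10 on WT_2 and WT_3, where 1 of these 2 arrays was not well above background. CXCL1, a neutrophil chemokine, lay at 5.83, 5.83, 6.03 and 5.65, at 4.71 on mock_3, and at 2.46 and 2.47 on WT_2 and WT_3. Here mock_3 lay between the first set and the 2 TRIM58-WT cells of the second.
The acute-phase genes SAA1 and SAA2 lay at -0.65 and -1.78 on mock_3, the only array of the second set that measured them well above background, and at 0.93 and 0.28 on mock_1-1. CXCL2 differed by -2.14 and C3, the central complement component, by -2.28. IL11 and LCN2, named after their values were seen, overlapped between the sets and did not follow. Of 28 complement, coagulation and other plasma protein genes, 8 were lower and 1 was higher, with a median of -1.11. FGG, the fibrinogen gamma chain, and the complement gene CFI were lower, but each was well above background on only 1 of the 3 arrays of the second set, so no size is given. C1S, another complement gene, differed by -2.71. CFI was higher on WT_1 (2.50) than on mock_1-1 (0.32) or mock_2 (0.22), and C1S was also highest there (5.90). The higher gene was the apolipoprotein APOC1, with a difference of 2.53.

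Other lower genes came from lists with smaller shares, beside 5.82% lower and 5.11% higher over all genes. Of 23 semaphorin, ephrin and axon guidance genes, 5 were lower (median -0.58), led by SEMA3B (-2.36). Of 31 collagen and matrix genes, 5 were lower, among them the basement membrane collagens COL4A5 (-1.71) and COL4A6 (-1.13). The list's median was -0.06, with 16 differences below 0 and 15 above. In the label fit with the set as a term, described below, limma called 14 of the 31 higher and 2 lower in TRIM58-WT. Over all probes these shares were 4.56% and 4.7%. The epithelial list had 4 lower genes of 25, among them LAMA3, MUC1 and CLDN2, and 1 higher, the membrane protease gene ST14. CLDN2 differed by only -0.07 among mock cells, and mock_3 (4.12) lay above mock_1-2 (4.05). ST14 lay at -2.37 on mock_1-1 and at -0.97 on mock_1-2, beside a difference of 1.64 between the sets. TSPAN8, a cell-surface tetraspanin, was at least 9.22-fold lower, and IGFBP3, which binds insulin-like growth factors, differed by -2.81.

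Clustered histone genes were the most completely higher group. Of the 16 replication-dependent histone genes listed, 13 were higher and none lower, with a median of 1.52. When all genes of the clusters were taken by symbol, a choice made after values were seen, 54 of 57 were higher, the lowest difference was 0.32 and the median 1.58. All classes took part, with 3 of 3 H1 genes, 12 of 13 H2A, 15 of 16 H2B, 11 of 12 H3 and 13 of 13 H4 genes. The 3 that did not follow were H2AC19, H3C1 and H2BC26.
H4C5 lay at 4.78, 5.13, 5.29 and 3.12 in the first set and at 6.96, 7.24 and 7.16 in the second. H1-4, a linker histone, lay at 3.19, 3.58, 3.55 and 2.68 and at 5.12, 5.64 and 5.45. WT_1 was the lowest array for both, so the sets differed more among TRIM58-WT cells. H2AC6 differed by 2.02, H3C4 by 2.01 and H2BC5 by 1.86. Between the 2 mock_1 arrays the median difference of the 57 genes was 0.03. Histone genes of 1 class are near-identical, so their probes may share transcripts.

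Histone genes outside the clusters did not follow, and few cell cycle genes did. None of 9 histone genes outside the clusters, such as H2AZ1 and H3-3A, followed the division, and their median was 0.36, or -0.03 under quantile normalization. Of 53 S phase genes none followed, with a median of 0.27, and of 55 G2/M genes 2 were higher, the mitotic kinesins CENPE (1.36) and KIF20B (1.67), with a median of 0.30. The median of the histone clusters was 1.38 under quantile normalization and 1.17 after normexp background correction, which also kept it above that of the S phase genes (0.11 and 0.02).

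Of 42 unfolded protein response and ATF4 genes, 9 were higher and 2 lower, with a median of 0.41. The median was 0.14 under quantile normalization and 0.08 after normexp correction, and 7 of the 42 were higher under quantile normalization. CBS, which makes cystathionine from homocysteine, lay at 1.60, 1.35, 1.49 and 1.73 in the first set and at 4.37, 3.95 and 4.02 in the second. ASNS, asparagine synthetase, lay at 4.22, 4.28, 4.45 and 3.94 and at 6.94, 6.0 and 5.94. The 4 arrays of the first set were close for both, and mock_3 was the highest array.
PHGDH and PSAT1 of serine synthesis differed by 1.85 and 1.15, and the tRNA synthetase genes GARS1 and AARS1 by 1.23 and 1.06. CHAC1, which breaks down glutathione, lay at 2.34 on mock_3, at 0.24 and 0.28 on WT_2 and WT_3, and at -1.38 on WT_1. Its level on mock_3 was 2.28 above the mean of mock_1 and mock_2, a mean that thus lay close to WT_2 and WT_3. In the label fit with the set as a term, described below, limma called CHAC1 lower in TRIM58-WT, by -1.75. The stress genes NUPR1 and SESN2 also followed (at least 2.97-fold, and 1.25 on the log2 scale). The chaperones HSPA5 and HSP90B1 differed by 0.58 and -0.03 and ATF4 itself by 0.53, and EDEM1 and DNAJB9 of endoplasmic reticulum quality control were lower (-1.25 and -1.20). BCAT1, a branched-chain amino acid transaminase outside the list, lay at -3.57, -3.40, -3.22 and -2.20 and at 1.28, 1.1 and 1.03, at least 15.3-fold higher.

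**Figure D4:**
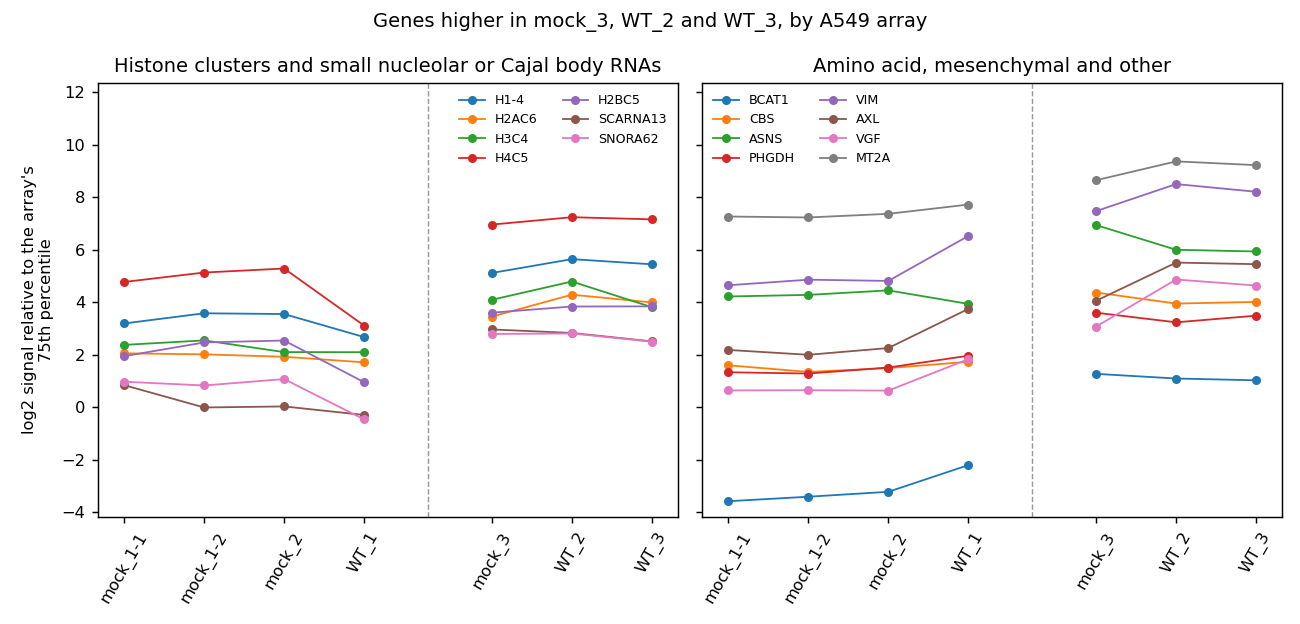
Levels (log2 relative to the 75th percentile of the array, y axis) of 15 higher genes on the 7 A549 arrays (x axis), with the first set left of the dashed line and the second set right of it. CBS and ASNS are flat within the first set, the histone gene H4C5 is lowest on WT_1 (3.12), and VIM and AXL on WT_1 lie between the mock cells and the second set.

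Mesenchymal and other single genes were also higher. VIM, the intermediate filament vimentin, lay at 4.65, 4.86, 4.82 and 6.53 in the first set and at 7.48, 8.50 and 8.21 in the second. AXL, a receptor tyrosine kinase, lay at 2.19, 2.00, 2.26 and 3.75 and at 4.06, 5.51 and 5.45. For both, WT_1 lay above the mock cells of its set and mock_3 below the TRIM58-WT cells of its own.
ZEB1 and SNAI1, repressors of epithelial genes, differed by 1.20 and 1.03. These were the 4 of 17 mesenchymal genes that followed (median 0.60), beside 5.11% higher over all genes, and under quantile normalization 1 of the 17 did. The list's median level was 3.75 on WT_1 of the first set, above 3.60 on mock_3 of the second. With the set as a term in the label fit, described below, limma called 5 of the 17 higher and 2 lower in TRIM58-WT. Over all probes these shares were 4.56% and 4.7%. VGF, a secreted neuropeptide precursor, lay at 0.64, 0.65, 0.64 and 1.83 and at 3.08, 4.87 and 4.64. CD86, a T cell costimulatory ligand, differed by 3.02, PORCN, which attaches lipid to WNT proteins, by 2.70, and the Cajal body RNA SCARNA13 by 2.72.
MT2A and MT1F, metal-binding metallothioneins, differed by 1.63 and 1.38. Of 9 genes of that list examined 2 followed the division, and the median difference was 1.38. The list's median level was 5.91 on WT_1 of the first set, above 5.36 on mock_3 of the second. In the label fit with the set as a term, described below, limma called 3 of the 9 higher in TRIM58-WT, against 4.56% of all probes. Some of the largest differences at probes measured on all arrays rested partly on 1 low array. CCM2L lay at -2.14 on mock_2 against 0.57 to 1.57 on the other arrays of the first set, VPS9D1 at -1.21 on mock_2 against 3.74 to 4.81, and RPL13AP3 at -0.31 on WT_1 against 6.09 to 6.64. Of 48 ribosomal protein genes 3 were higher, with a median of 0.62, and under quantile normalization none was and the median was 0.03.

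**Figure D5:**
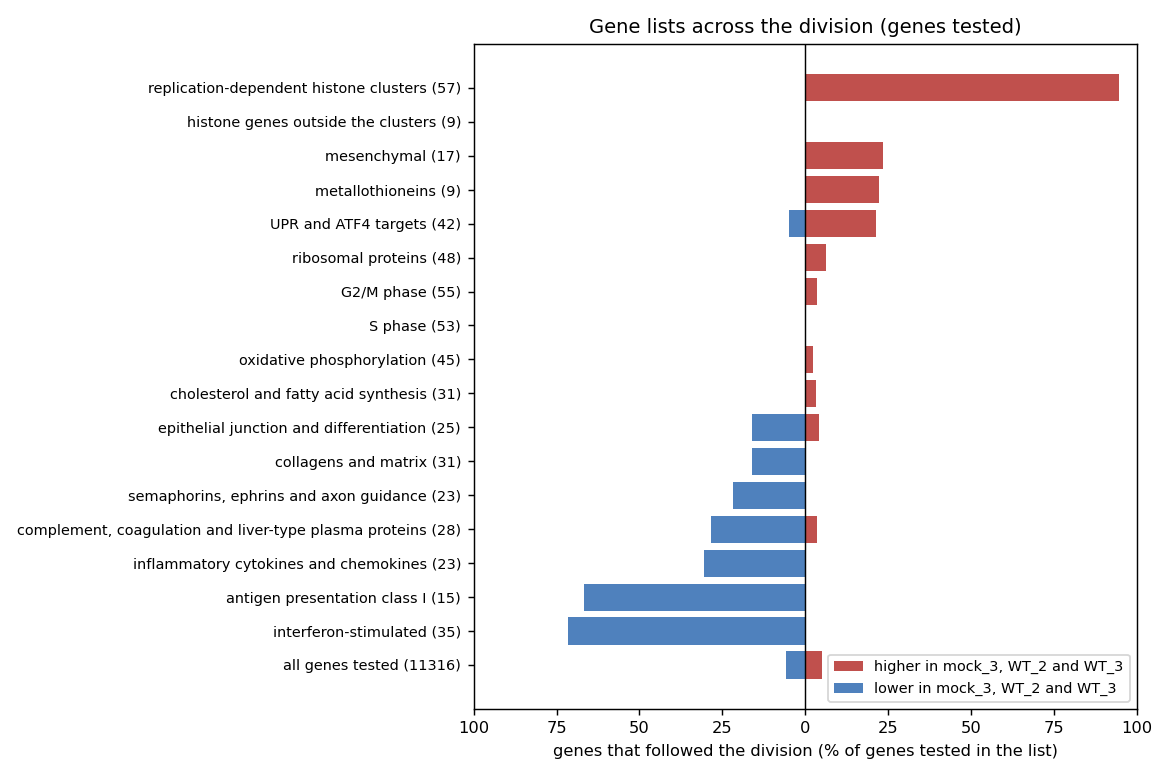
Share of the genes examined in each list that were higher (red, to the right) or lower (blue, to the left) in the second set, in percent, with the number of genes in brackets. The clustered histone genes reach 94.7% higher and the interferon-stimulated genes 71.4% lower, beside 5.11% and 5.82% over all genes (bottom row).

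Markers of cell identity were read on all A549 arrays. Of 44 epithelial genes on the array, 37 were well above background on some A549 array. Of 26 alveolar lineage genes on the array, 18 were well above background on some A549 array. NKX2-1 and SFTPB, markers of alveolar type II cells, were well above background on none. Of the 19 leukocyte markers 8 were well above background on any A549 array, and the T cell genes CD3D and CD3E and the B cell gene MS4A1 were on none. The summed level of the leukocyte list, relative to the 75th percentile on the linear scale, was 7.51 to 9.12 in the second set and 6.97 to 9.26 in the first. The summed level of the endothelial list was 6.48 to 7.82 in the second set and 4.39 to 6.23 in the first, which did not overlap, and that of the fibroblast list was 14.7 to 38.5 and 7.67 to 26.4. Their part in the higher genes, the mesenchymal genes included, was not tested. Of 13 endothelial markers 2 and of 14 fibroblast markers 5 were well above background on any array, with PECAM1, VWF, COL1A2 and PDGFRB on none. In arrays of whole cultures, fewer cells that express a gene and less RNA per cell cannot be told apart.

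The higher and lower genes were also described by their span and position. Among protein-coding genes, the higher ones outside the histone clusters had a median genomic span of 18.4 kb (460 genes), against 30.7 kb for the lower and 29.2 kb for all outside the clusters. On chromosome 19, 66 of 785 genes were higher and 19 lower, with a median of 0.35. On chromosome 6, 72 of 596 were higher and 48 lower, and outside the histone clusters and HLA genes 25 and 40 of 539. These values are descriptions of the genes that the division chose.

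The TRIM58-WT labels were then compared at the same probes. In A549 without the set as a term, limma called 1171 of 16919 probes (6.92%, 3.49% higher and 3.43% lower in TRIM58-WT). None of the 1116 higher or 612 lower probes of the division was called by limma. At an unadjusted p under 0.05 (limma) were 80 and 118 of them, against 4275 of all 16919 probes. The methods' t-test called 24 probes in all. Each label group holds cells of both sets, so probes chosen for a gap between the sets have a large spread within a label, and the count of 0 follows largely from that choice. Fitted with the set as a term, limma called 1568 of 16919 probes for the label (9.27%, of which 4.56% were higher and 4.7% lower, adjusted p under 0.05 and at least 2-fold). Of the probes that followed the division, 24 of 1116 higher ones were called (2.15%) and 65 of 612 lower ones (10.6%). By direction, 58 of the 612 lower probes were called lower in TRIM58-WT (4.7% over all probes) and 7 were called higher (4.56% over all). The rule on overlap also limits how far replicates within a set can differ, which is the spread that this fit uses. The standard errors and p-values given next are thus of probes chosen from the same values. Of the 65, 58 were lower in TRIM58-WT, among them S100A8, a calcium-binding alarmin subunit, by a log2 change of -2.51 (standard error 0.17, limma, adjusted p = 0.00114). Of the 24, 20 were higher in TRIM58-WT, among them AXL by 1.497 (standard error 0.11, limma, adjusted p = 0.00149) and VIM by 1.31 (standard error 0.22, limma, adjusted p = 0.0140). S100A8 was named after its values were seen. Without mock_3 the fit called 3022 probes in all.

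HCC827 took no part in the choice of the sets. Its TRIM58-WT and mock cells, all on slide 1, differed at 173 of 19542 probes (0.885%, with 0.292% higher and 0.594% lower in TRIM58-WT, limma, adjusted p under 0.05 and at least 2-fold, n = 2 each). Among probes that followed the division in A549, 3 of 1092 higher ones (0.275%) and 18 of 882 lower ones (2.04%) were called. Of the 18, 12 were lower and 6 higher in TRIM58-WT, and the 3 were higher. The difference of these shares from the background was not tested. BCAT1, higher in the second set of A549, lay at -0.20 and 0.00 in HCC827 mock and at 1.85 and 1.91 in TRIM58-WT, a change of 1.98 (standard error 0.14, limma, adjusted p = 0.0341). TSPAN8 lay at 2.66 and 2.97 in mock and at -0.15 and 0.39 in TRIM58-WT, a change of -2.69 (standard error 0.24, limma, adjusted p = 0.0389). MAP2, a neuronal microtubule protein at least 4.28-fold lower in the second set of A549, changed by -2.84 (limma, adjusted p = 0.0296).
HOXB5 and HOXB6, lower in the second set, were called higher in HCC827 TRIM58-WT by 1.76 and 1.48 (limma, adjusted p = 0.0488 and 0.0484). No gene of the interferon-stimulated, class I, clustered histone or ATF4 lists was called in HCC827 by limma, and the methods' t-test called no probe at all there. At an unadjusted p under 0.05 (limma) were 14 of 34, 4 of 15, 4 of 56 and 19 of 41 genes, against 3970 of all 19542 probes. The difference of these shares from the background was not tested. The median changes of the lists were 0.25, 0.34, -0.12 and 0.26. The calls of HCC827 did not survive leaving out mock replicate 1 or mock replicate 2, either of which left 0 called probes, and a replicate block also left 0.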

How the data were processed

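The deposited intensity of each spot had been extracted by the authors with Agilent Feature Extraction (version 10.7 per the labels), background subtracted, but not scaled across arrays. A log2 table of these arrays, deposited by the authors, served as an alternative. From the intensities, outlier and control spots were left out, the spots of each of 42405 probes were averaged, and values were put on the log2 scale relative to the array's 75th percentile, with R 4.3.3 and Python 3.11.15. A probe counted as well above background where the scanner flag said so for a share of its spots over 0.5. Of the probes, 27241 were named through their RefSeq accession (GRCh38.p14).

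The transfection labels were tested with limma 3.58.1 (lmFit and eBayes, Benjamini-Hochberg adjustment), at an adjusted p under 0.05 and at least 2-fold, in A549 with and without the set as a term and in HCC827. The division itself was not tested. Nothing in the labels says that replicates came from separate infections, so p-values measure only the spread between these samples. The number of arrays limits the precision. The steps were tested on simulated data.

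The members, the sets and the gene lists were chosen with earlier results of these data known. Genes named were the 12 largest differences in each direction among probes well above background on every A549 array, the 6 largest bounds in each direction, and up to 6 members of each list, with the brightest probe for each gene, and not every one is named in the text. Genes outside that rule serve as members of a described list or are said to be named after their values were seen. Alternatives were normexp background correction (offset 50), alignment on the median, quantile normalization, other filters, outlier spots kept, the authors' table, single mock_1 arrays, each replicate left out, the slide as a term, a replicate block and the methods' t-test.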

Additional observations from a re-analysis of the deposited data

How the results depend on the processing

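Under 15 alternatives, the 141 named genes kept the direction of their difference in all 2115 values. Much of this was fixed in advance, because the named genes do not overlap between the sets. Leaving out a replicate cannot reverse such a gene, and a change of filter leaves its difference as it was. Of the values, 103 moved by more than the spread within the sets, 88 of them after normexp background correction. Of the probes that followed the division, 53.7% were higher as reported, 67.3% after a median shift (1544 higher and 749 lower), 43.2% after normexp correction (244 and 321) and 65.9% with a filter on every array (923 and 478). With no filter 1935 were higher and 1548 lower. With single replicates left out, 1170 to 1908 were higher and 1013 to 2006 lower. The interferon-stimulated genes lower in the second set numbered 14 after a median shift, the mesenchymal genes higher numbered 1 and the ribosomal protein genes higher 0 under quantile normalization. For the transfection label in A549 without the set as a term, limma called 1171 probes (6.92%), 512 after normexp, 609 with no filter, 673 with a filter on every array and 1801 with the slide as a term. The methods' t-test called 24, and 3252 at an unadjusted p under 0.05. With single replicates left out limma called 297 (without mock replicate 1) to 2192 (without mock replicate 3), and without mock replicate 2, TRIM58-WT replicate 2 or TRIM58-WT replicate 3 limma called 360, 372 and 313. With the set as a term, limma called 591 after normexp, 1020 with no filter, 953 with a filter on every array, and 1204 to 3022 with single replicates left out. In HCC827 limma called 650 after a median shift, 93 after normexp, 0 with no filter and 367 with a filter on every array. The methods' t-test called 0 there, with 1500 at an unadjusted p under 0.05, where limma had 3970. Single replicates left out gave 0 to 461 in HCC827, with the lone sample of an arm assumed to vary like the others. With a replicate block limma called 1122 probes in A549 and 0 in HCC827. In A549, replicates of the same number deviated together for numbers 1 and 3 (correlation 0.59 and 0.60) but not for number 2 (-0.50). Replicates numbered 1 share the first set and those numbered 3 the second, whereas mock_2 and WT_2 lie in opposite sets. The division thus largely fixes these values, which cannot show whether the numbers pair the A549 samples. HCC827 has too few numbers for this check. Signal over background limits the lower genes: no array of the second set measured 411 of the 1058 lower probes well above background, and no array of the first set 33 of the 1229 higher ones. The cause of the changes with the processing was not tested.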
